A study of Larimichthys crocea with 4 samples.

Results

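Pre-mRNA splicing genes were examined in 4 liver RNA-seq libraries of the large yellow croaker (Larimichthys crocea), a farmed marine fish. The genes were taken by the wording of the KEGG orthology annotation, in which each orthology number stands for a gene or a group of like genes. Every number defined as a splicing factor, a small nuclear ribonucleoprotein or a pre-mRNA-processing factor was kept, and nucleolar ribonucleoproteins were left out. This gave 73 of 5468 orthology numbers, carried by 344 of 57216 unigenes, the transcript sequences assembled from the reads.

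The libraries came from fish without food for 21 d (fasting), from fish under cold stress for 12 h, from fish under thermal stress for 12 h and from untreated control fish. The paper asks how the liver responds to fasting. The study's methods describe net-cage fish in seawater, fed with surimi until feeding stopped for the fasting fish, and several fish per group for the fasting and the normal feeding library, which is the control here. They do not describe the cold and thermal stress fish, and the temperatures of these treatments were not given in the sources used here. There is 1 library per group, so no value has a spread between replicates, and every interval below is a 95% interval that covers counting error only.

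The spliceosome removes introns from nuclear transcripts. The U1 small nuclear ribonucleoprotein particle (snRNP) marks the 5′ splice site, U2AF and the U2 snRNP mark the 3′ end of the intron and its branch point, and the U4/U6.U5 tri-snRNP joins before the complex is activated. A ring of Sm proteins is shared by these particles, helicases drive each rearrangement, and SR proteins bind exons and help to place the complex. A minor spliceosome with its own U11 and U12 particles removes a rare class of introns.

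Orthology numbers held 15944784 fragments in the fasting library, 12724085 in the cold stress, 13430478 in the thermal stress and 12860883 in the control library, which were 81.6%, 74.8%, 74.95% and 73.5% of all counted fragments. Hepatocyte transcripts for fibrinogen, transferrin, apolipoprotein A-I, complement C3 and alpha-1-antitrypsin (7 orthology numbers) took 9.53%, 8.28%, 8.71% and 10.5% of all fragments, in the same order of libraries. Pancreatic digestive enzymes (11 numbers) took 9.84% of the fasting, 5.52% of the cold stress and 4.04% of the thermal stress library, against 3.91% of the control library. Hemoglobins, skeletal muscle genes, T and B cell genes and proliferation genes each stayed at or under 0.0704% in every library. The part of pancreatic tissue in the results was not tested, and in bulk RNA fewer cells of a type and less RNA per cell cannot be told apart.

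Splicing genes were expressed at moderate levels. A member had a median of 310.0 fragments in the control library, with a range of 2 to 2161. The median of FPKM (the fragment level per kilobase of unigene on a per-million scale), summed over a member's unigenes, was 10.8 in the fasting, 20.9 in the cold stress, 11.1 in the thermal stress and 13.96 in the control library. Over all orthology numbers it was 8.60, 12.9, 9.62 and 10.3 in the same order. Together the members took 0.146% of fragments in the fasting, 0.258% in the cold stress, 0.146% in the thermal stress and 0.169% in the control library. The highest FPKM in the control library belonged to the Sm proteins SNRPB with 73.9 and SNRPG with 71.7 and to SYF2, a partner of the catalytic core, with 63.0.

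An orthology number can gather unigenes of other genes. Unigenes whose best protein match bore the name of the gene itself, called matched unigenes here, numbered 223 and held 74.6% of the members' fragments. For 52 members at least 90% of fragments lay on matched unigenes, for 13 members under 50%, and 1 member, SUGP2, had none. Of the 2161 control fragments under the number of the U1 protein SNRNP70, for example, 1493 lay on a unigene that matched PDAP1, a platelet-derived growth factor-associated protein. Values of a member are sums over its whole number unless they are said to be of matched unigenes.

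Fragments on a per-million scale (CPM) were compared with the control library, and a gene was called when its ratio was at least 2-fold and an exact two-sided binomial test on the fragments gave an unadjusted p under 0.05. This test compares libraries and not conditions. Cold stress had the most calls, with 16 of 73 members higher and 0 lower. Among all tested orthology numbers 17.5% were called higher and 9.22% lower in that library. Fasting had 0 of 72 members called higher and 11 lower, beside 10.2% and 21.6% of all numbers. Thermal stress had 1 of 72 members called higher and 7 lower, beside 6.94% and 11% of all numbers. The share of members called lower was thus 15.3% after fasting and 9.72% under thermal stress, both below the share over all numbers. The share called higher under cold stress was 21.9%, only somewhat above the 17.5% of all numbers, and this difference was not tested. With DESeq2's median-of-ratios scaling 10 of 73 members were called higher under cold stress, beside 637 of all 5228 numbers. All 3 comparisons use the same control library, so they are not independent of each other.

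The bulk of the splicing genes differed from other genes most under cold stress. The median log2 CPM ratio of the members was 0.55 in cold stress against control, beside 0.21 over all 5228 tested numbers. The members' medians were -0.29 in fasting against control, beside -0.22 over all numbers, and -0.28 in thermal stress against control, beside -0.13. In the cold stress library 66 of 73 members lay above the control level (90.4%, beside 60.9% of all numbers), and the interval of the ratio lay wholly above 0 for 52 of them. After fasting 21 of 72 members lay above control (29.2%, beside 40.3%), and under thermal stress 19 of 72 (26.4%, beside 42.0%). Part of each shift is shared by all genes. TMM scaling, which brings the median of all numbers close to 0 (-0.01, 0.01 and -0.01 for fasting, cold stress and thermal stress), left 54 of 73 members above control under cold stress (74.0%, beside 50.6%) with a median of 0.35. The members' medians with this scaling were -0.07 in fasting and -0.16 in thermal stress against control. The calls of U2AF1, SMNDC1, ZCRB1, ZMAT5 and DHX16 after fasting and of RBM17, SRSF4/5/6, CDC5L and XAB2 under cold stress were lost with TMM scaling. If samples are assumed to vary with a biological coefficient of variation of 0.4, 3 of 72 members stay called lower for fasting (beside 6.99% of all numbers). For cold stress 3 of 73 stay called higher (beside 5.30%), a smaller share of members than of all numbers. For thermal stress 1 higher and 1 lower call are left (beside 2.19% and 2.44%). Cold stress gave the highest of the 4 levels for 61 of 73 members (83.6%), beside 43.7% of 5349 numbers.

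**Figure D1:**
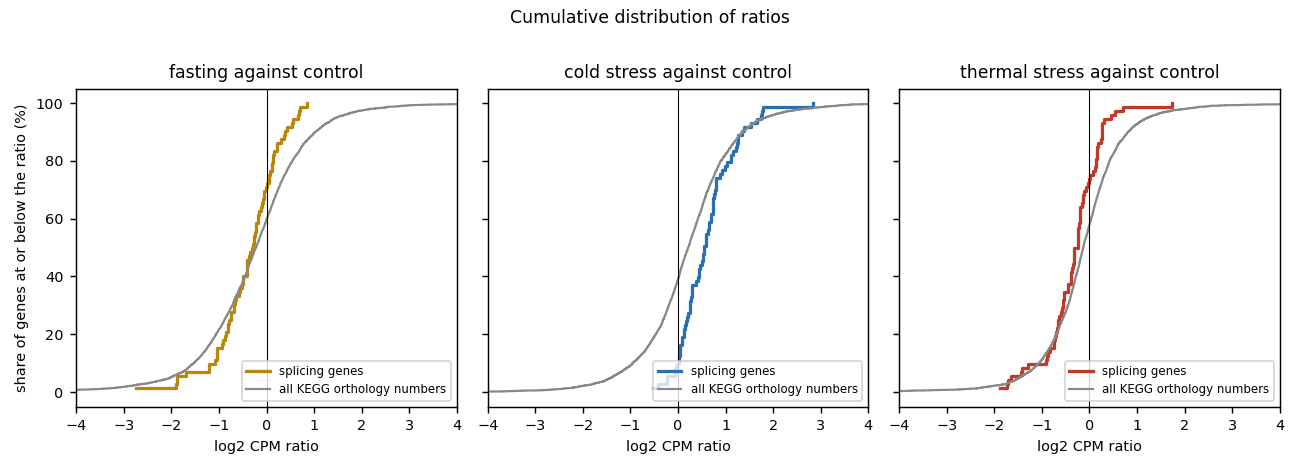
Cumulative share of genes (vertical axis, percent) at or below a log2 CPM ratio to control (horizontal axis), for the splicing genes (coloured line) and all tested KEGG orthology numbers with fragments in both libraries (grey line), in fasting, cold stress and thermal stress. The splicing curve lies to the right of the grey curve under cold stress (medians 0.55 and 0.21), and in all 3 panels it is steeper, with few members at the far ends.

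Members also spread less than other genes. The interquartile range of the members' log2 ratios was -0.76 to 0.06 for fasting, 0.19 to 0.87 for cold stress and -0.65 to 0.02 for thermal stress. Over all numbers it was -0.89 to 0.38, -0.32 to 0.76 and -0.57 to 0.31. This difference in spread was not tested.

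**Figure D2:**
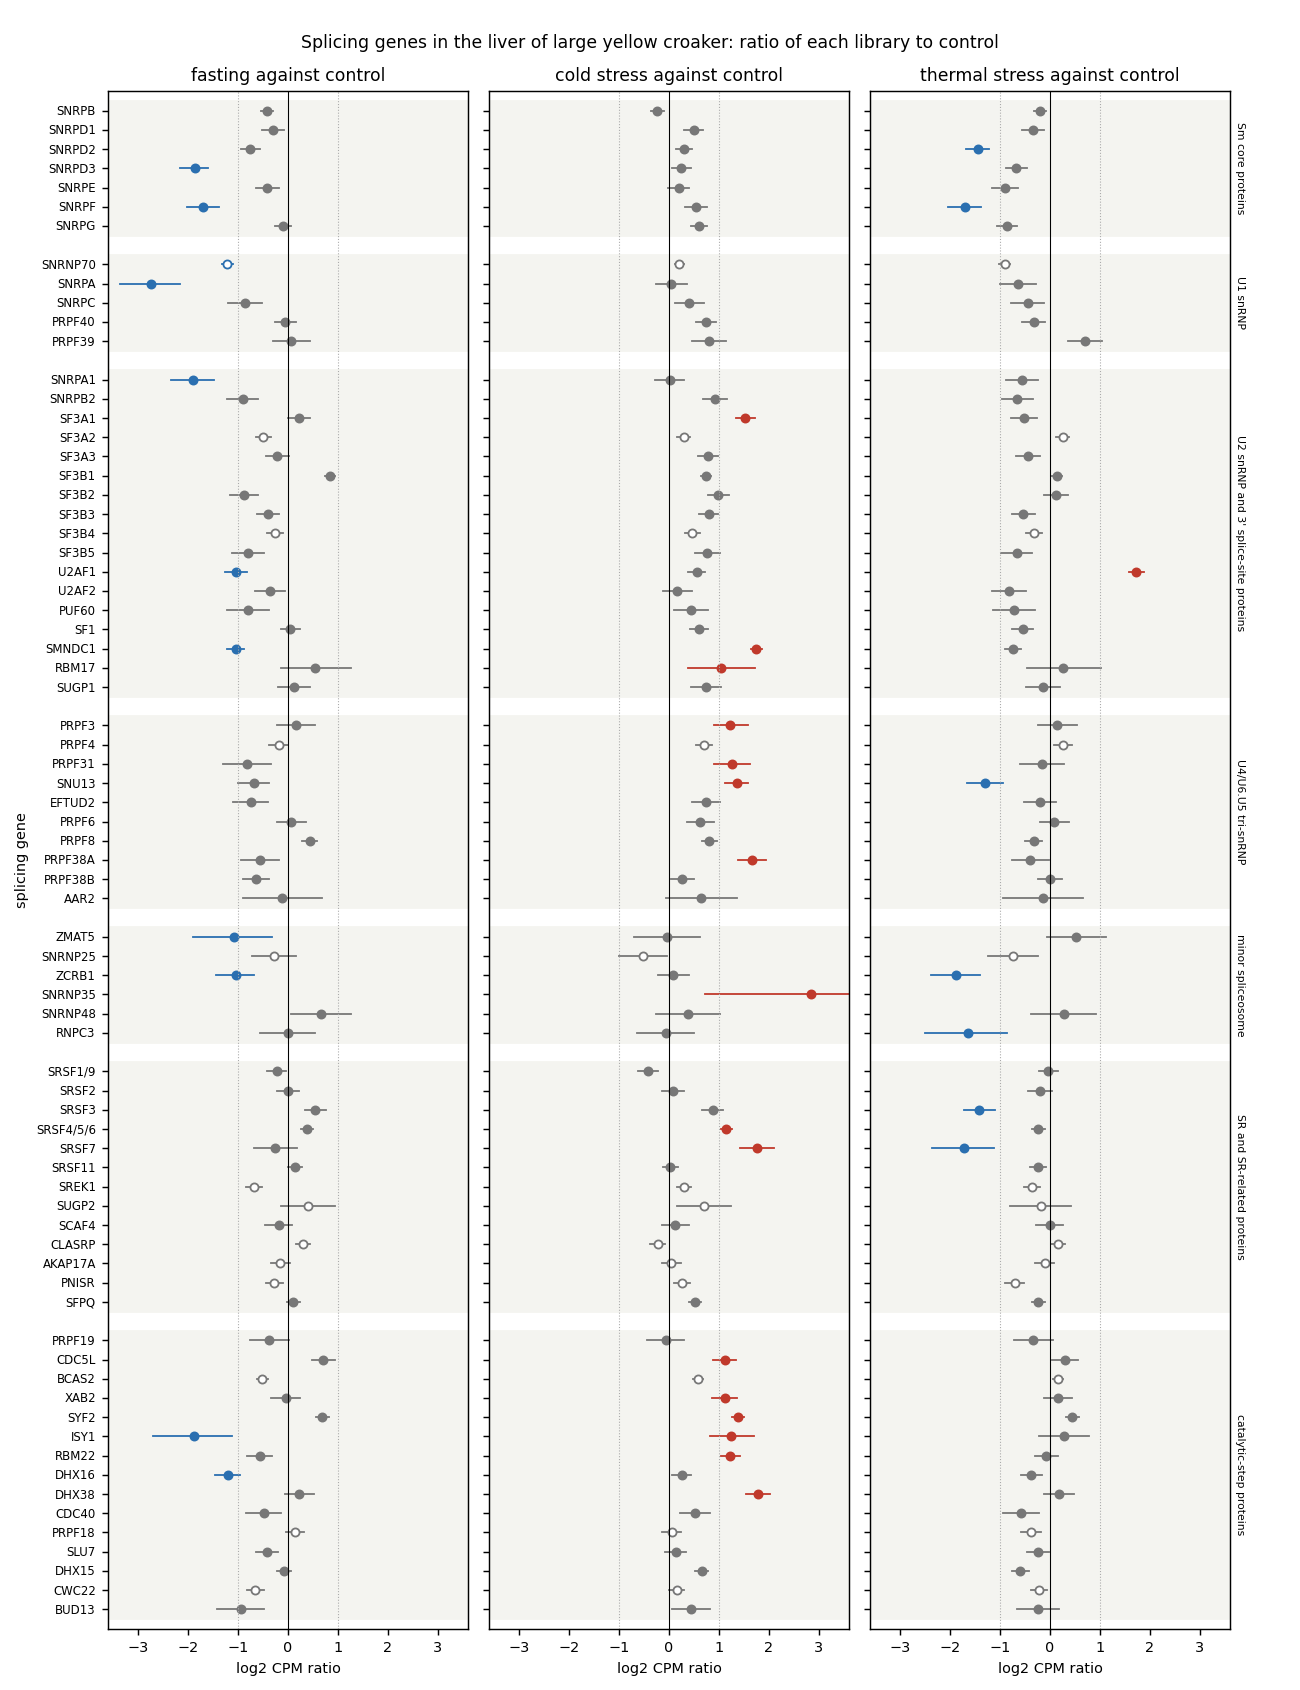
Log2 CPM ratio to control (horizontal axes) of each splicing gene (rows, grouped by role) in fasting, cold stress and thermal stress, with the 95% counting interval as a line. Red points were called higher, blue points lower and grey points not called, open points mark members with under 50% of fragments on matched unigenes, dotted lines mark 2-fold, and the interval of SNRNP35 runs past the axis. Red points appear in the cold stress panel for 16 members and in the thermal stress panel only for U2AF1.

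The Sm core comprises 7 proteins that form a ring on the snRNAs. All 7 lay below control after fasting and under thermal stress, with medians of -0.42 and -0.87 on the log2 scale, and 6 of 7 lay above control under cold stress with a median of 0.29. With TMM or median-of-ratios scaling, SNRPG moved above control after fasting, all 7 stayed below it under thermal stress, and 5 of 7 lay above it under cold stress. The summed Sm level was 145 CPM in the fasting, 257 CPM in the cold stress, 138 CPM in the thermal stress and 218 CPM in the control library.

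SNRPF and SNRPD3 moved furthest in the ring. SNRPF had 5.53 CPM in the fasting, 26.2 CPM in the cold stress, 5.53 CPM in the thermal stress and 18.0 CPM in the control library. It fell 3.26-fold both after fasting (log2 ratio -1.70, interval -2.03 to -1.38) and under thermal stress (-1.70, -2.05 to -1.37). SNRPD3 had 7.17 CPM in the fasting, 31.2 CPM in the cold stress, 16.5 CPM in the thermal stress and 26.2 CPM in the control library, and fell 3.66-fold after fasting (-1.87, -2.16 to -1.60). SNRPD2 was lowest under thermal stress. Its level there was 12.0 CPM, with 19.4 CPM in the fasting, 40.0 CPM in the cold stress and 32.6 CPM in the control library, and it fell 2.72-fold under thermal stress (-1.44, -1.68 to -1.22). SNRPB, the most abundant Sm gene per length in the control library, was the steadiest, with 49.6, 56.4 and 57.9 CPM in the fasting, cold stress and thermal stress libraries, against 66.4 CPM in the control library. SNRPD1, SNRPE and SNRPG passed the call in no library, and their log2 ratios ran from -0.90 for SNRPE under thermal stress to 0.60 for SNRPG under cold stress.

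**Figure D3:**
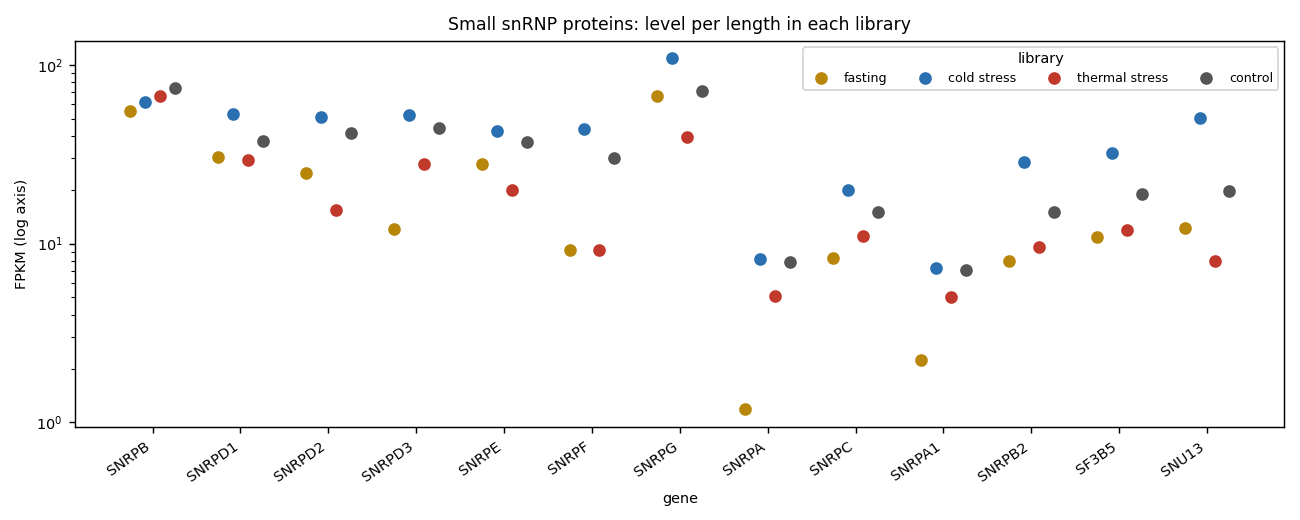
FPKM on a log axis (vertical) of the 7 Sm proteins and 6 other small snRNP proteins (horizontal) in the fasting, cold stress, thermal stress and control libraries, 1 point per library. SNRPA and SNRPA1 sit lowest in the fasting library, at 1.18 and 2.24 FPKM against 7.93 and 7.13 FPKM in the control library.

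The proteins bound to U1 and U2 snRNA held the members' largest falls in the fasting library. SNRPA, which binds a loop of U1 snRNA, had 1.43 CPM in the fasting library, 9.93 CPM in the cold stress, 6.14 CPM in the thermal stress and 9.60 CPM in the control library. It fell 6.70-fold after fasting (log2 ratio -2.74, interval -3.38 to -2.16), on 28 fragments against 168 in control. SNRPA1, a stable protein of the U2 particle, had 3.12 CPM in the fasting, 11.8 CPM in the cold stress, 7.92 CPM in the thermal stress and 11.7 CPM in the control library, and fell 3.73-fold after fasting (-1.90, -2.34 to -1.48). In the control library 72.9% of the reads placed on SNRPA1 unigenes fitted several places, so their assignment is uncertain. SNRPB2, the partner of SNRPA1 on U2 snRNA, had 6.76 CPM in the fasting, 24.0 CPM in the cold stress, 8.04 CPM in the thermal stress and 12.7 CPM in the control library and passed the call in none, with ratios of -0.91 after fasting and 0.92 under cold stress. SNRPC, which stabilises the pairing of U1 with the splice site, had a ratio of -0.86 after fasting and was also not called.

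SNRNP70, the U1-70K protein, was called lower after fasting as a whole number, with 53.0 CPM in the fasting and 124 CPM in the control library (-1.22, -1.33 to -1.11). Its 2 matched unigenes together had 35.2 CPM in the fasting, 27.0 CPM in the cold stress, 19.3 CPM in the thermal stress and 37.8 CPM in the control library. Their ratio after fasting was -0.10 (-0.26 to 0.05), so the call was lost, and the PDAP1 unigene alone carried a ratio of -2.33. Under thermal stress the matched unigenes gave -0.97 (-1.16 to -0.78). The U1-associated proteins PRPF40 and PRPF39 passed the call in no library, with 0.74 and 0.80 under cold stress. Of the reads placed on PRPF39 unigenes in the control library, 95.2% fitted several places, so their assignment is uncertain.

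The U2 snRNP and 3′ splice-site proteins comprise 17 members. All 17 lay above control under cold stress, with a median of 0.74. Of them 3 were called higher, a share near the 17.5% of all numbers. With TMM or median-of-ratios scaling 15 of 17 lay above control and 2 were called, beside 677 and 637 of all 5228 numbers. SF3A1, a subunit that joins SF3a to the U2 particle, had 20.3 CPM in the fasting, 50.3 CPM in the cold stress, 12.1 CPM in the thermal stress and 17.4 CPM in the control library, and rose 2.89-fold under cold stress (1.53, 1.34 to 1.72). The other SF3a and SF3b members had cold stress ratios from 0.30 for SF3A2 to 0.99 for SF3B2. Matched unigenes held 21.1% of the fragments of SF3A2 and 25.6% of those of SF3B4 over the 4 libraries. They gave 0.43 and 0.90 under cold stress, and for SF3B4 0.51 after fasting, where the whole number had -0.26. SF3B1, which holds the branch point, lay above control after fasting too. It had 126 CPM in the fasting, 117 CPM in the cold stress, 76.8 CPM in the thermal stress and 70.0 CPM in the control library, with ratios of 0.85 (0.75 to 0.95) after fasting and 0.74 under cold stress. Neither reached 2-fold, but with TMM scaling SF3B1 was called higher after fasting. SF3B2, its neighbour in the SF3b complex, lay on the other side after fasting, with 8.81 CPM in the fasting, 32.1 CPM in the cold stress, 17.7 CPM in the thermal stress and 16.2 CPM in the control library (-0.88, -1.16 to -0.60, in fasting against control).

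SMNDC1, a Tudor-domain protein needed for tri-snRNP recruitment, moved in opposite directions in fasting and cold stress. It reached 162 CPM in the cold stress library, with 23.2 CPM in the fasting, 28.9 CPM in the thermal stress and 48.2 CPM in the control library. It rose 3.36-fold under cold stress (1.75, 1.64 to 1.86) and fell 2.07-fold after fasting (-1.05, -1.22 to -0.89). Its single matched unigene gave 1.79 under cold stress and -1.32 after fasting. RBM17, an alternative splicing factor that binds the U2 machinery, was called higher under cold stress on 60 against 30 fragments (1.04, 0.38 to 1.72), and its matched unigenes gave 0.92 and no call. Of the reads placed on RBM17 unigenes in the control library, 86.1% fitted several places, so their assignment is uncertain.

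U2AF1, the small U2AF subunit that reads the intron's last bases, was the only member called higher under thermal stress. Its number had 13.3 CPM in the fasting, 40.1 CPM in the cold stress, 90.4 CPM in the thermal stress and 27.3 CPM in the control library. It rose 3.31-fold under thermal stress (1.73, 1.58 to 1.88) and fell 2.06-fold after fasting (-1.04, -1.27 to -0.82). Most of the difference lay on 1 of its 4 unigenes. CL2386.Contig1 had 2.41 CPM in the fasting, 22.4 CPM in the cold stress, 76.7 CPM in the thermal stress and 15.7 CPM in the control library. CL3159.Contig2, the longest U2AF1 unigene, had 9.98 CPM in the fasting, 15.4 CPM in the cold stress, 10.5 CPM in the thermal stress and 9.77 CPM in the control library. The ratio of CL2386.Contig1 was 2.29 (2.10 to 2.48) under thermal stress and -2.70 (-3.18 to -2.25) after fasting, while that of CL3159.Contig2 was 0.11 (-0.20 to 0.42) and 0.03 (-0.27 to 0.34). Fewer than 10% of the reads placed on either fitted a second place. Whether these are copies of the gene, alleles or transcript forms was not tested. The large subunit U2AF2, which binds the pyrimidine tract, had 6.36 CPM in the thermal stress and 11.3 CPM in the control library (-0.82, -1.17 to -0.48) and was not called. SF1, which holds the branch point before U2 arrives, the U2AF-like PUF60 and SUGP1 also passed the call in no library, and their cold stress ratios were 0.60, 0.45 and 0.73. Of the reads placed in the control library, 81.85% on U2AF2, 69.1% on SF1 and 98.65% on PUF60 unigenes fitted several places. The values of these 3 genes are therefore uncertain.

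**Figure D4:**
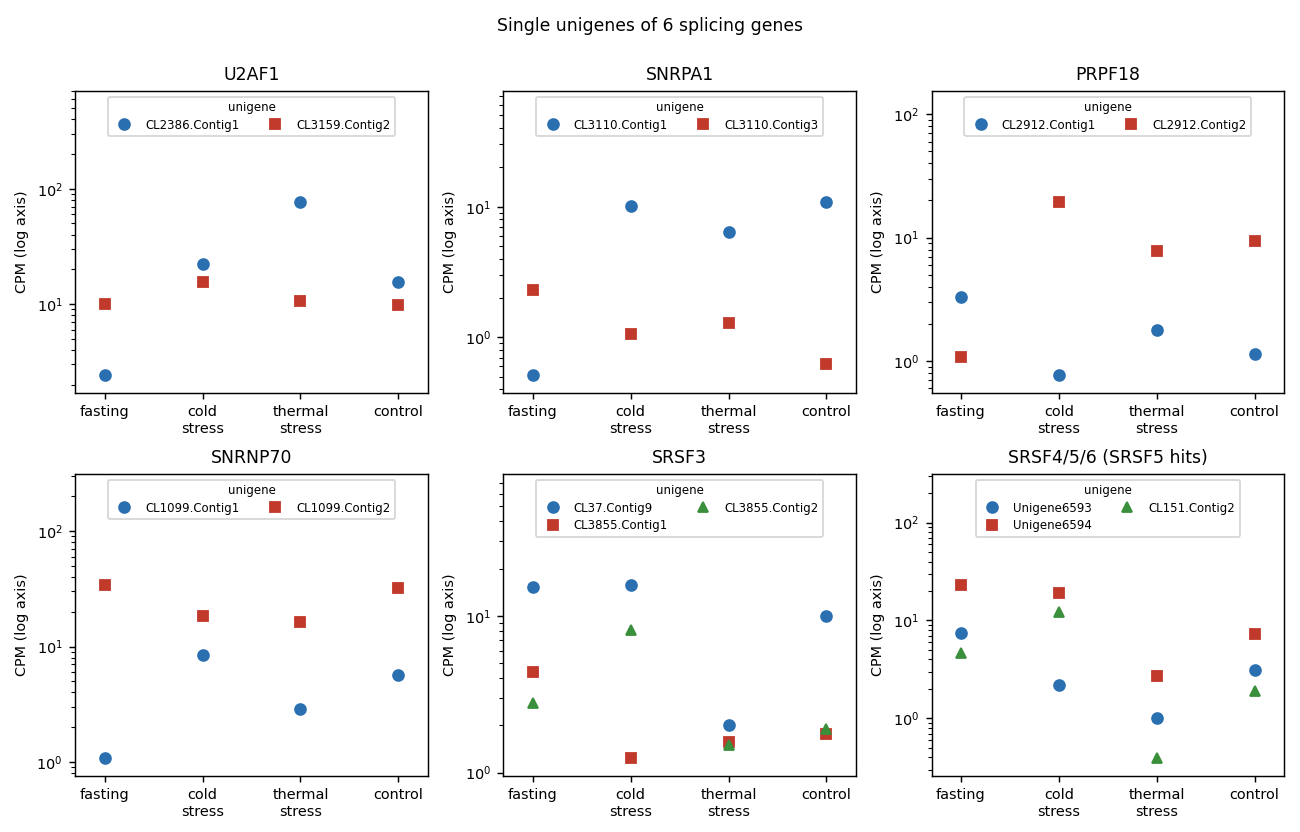
CPM on log axes (vertical) of single unigenes of U2AF1, SNRPA1, PRPF18, SNRNP70, SRSF3 and the SRSF4/5/6 number in the fasting, cold stress, thermal stress and control libraries, 1 point per library and unigene. The U2AF1 unigene CL2386.Contig1 reaches 76.7 CPM in the thermal stress library while CL3159.Contig2 stays between 9.77 and 15.4 CPM, and in SNRPA1 and PRPF18 the order of the unigenes turns round in the fasting library.

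Several clusters of contigs changed their balance in the fasting library. Within SNRPA1, CL3110.Contig1 had 0.512 CPM in the fasting and 10.9 CPM in the control library (-4.41, -5.49 to -3.50), and CL3110.Contig3 had 2.30 CPM in the fasting and 0.629 CPM in the control library (1.87, 0.90 to 2.97). Within PRPF18, which acts in the second catalytic step, CL2912.Contig2 had 1.08 CPM in the fasting and 9.32 CPM in the control library (-3.12, -3.85 to -2.46), while CL2912.Contig1 had 3.28 CPM in the fasting and 1.14 CPM in the control library (1.52, 0.78 to 2.32). Within SNRNP70, CL1099.Contig1 had 1.08 CPM in the fasting and 5.66 CPM in the control library (-2.40, -3.15 to -1.71), and CL1099.Contig2, the longer contig, had 34.1 CPM in the fasting and 32.1 CPM in the control library (0.09, -0.08 to 0.25). Contigs of a cluster share sequence, and counted fragments are few there. On unigenes with mostly multiply placed reads there were 0.0511 counted fragments per placed read in the control library, against 0.537 on unigenes with none. The split between such contigs is therefore uncertain.

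With the U4/U6.U5 tri-snRNP 10 members were grouped, among them the assembly factor AAR2. All 10 lay above control under cold stress, with a median of 0.77 and 4 higher calls, beside 17.5% of all numbers. They did so with TMM and with median-of-ratios scaling as well, with medians of 0.57 and 0.54. Their summed level was 124 CPM in the fasting, 246 CPM in the cold stress, 121 CPM in the thermal stress and 133 CPM in the control library. After fasting 7 of these 10 lay below control and none of them was called, beside 10.2% of all numbers called higher and 21.6% lower. With either scaling 5 of 10 lay below control. Further tri-snRNP proteins lay outside the wording of the rule. Of these, the tri-snRNP-associated protein 3 and the U5 protein of the DIM1 family were below control under cold stress and called lower after fasting. They are given with the further spliceosome genes at the end.

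PRPF38A, which enters with the tri-snRNP and is needed for activation, had 5.43 CPM in the fasting, 25.4 CPM in the cold stress, 6.08 CPM in the thermal stress and 8.003 CPM in the control library, and rose 3.17-fold under cold stress (1.67, 1.39 to 1.95). SNU13, which binds a kink in U4 snRNA and also serves snoRNPs, had 7.58 CPM in the fasting, 31.3 CPM in the cold stress, 4.97 CPM in the thermal stress and 12.2 CPM in the control library. It rose 2.56-fold under cold stress (1.35, 1.12 to 1.59) and fell 2.46-fold under thermal stress (-1.30, -1.67 to -0.94), so the 2 temperature treatments lay on opposite sides of control for this gene. The U4/U6 proteins PRPF31 and PRPF3 rose 2.39-fold and 2.35-fold under cold stress, at 13.1 CPM against 5.49 CPM and at 14.1 CPM against 6.002 CPM in the control library. PRPF4 had a ratio of 0.70 as a whole number, and its matched unigene, with 19.2 CPM in the cold stress and 7.03 CPM in the control library, gave 1.45 and was called higher. PRPF8, the scaffold of the catalytic centre, had 48.9 CPM in the fasting, 63.4 CPM in the cold stress, 28.9 CPM in the thermal stress and 36.2 CPM in the control library. Its ratios, like those of the U5 GTPase EFTUD2 and of PRPF6, stayed under 2-fold in every library. PRPF38B and the U5 assembly factor AAR2 were also not called, the second on 29 control fragments.

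The catalytic-step members comprise 15 proteins, among them the PRPF19 complex and the helicases. Under cold stress 14 of 15 lay above control with a median of 0.58 and 6 were called higher, beside 17.5% of all numbers. With TMM scaling 11 of 15 lay above control and 4 were called, and with median-of-ratios scaling 11 and 3. Of all 5228 numbers, 677 and 637 were called higher with these scalings. SYF2, ISY1, XAB2, CDC5L and RBM22, all found in or beside the PRPF19 complex, were among the 6 called with library totals. PRPF19 itself had -0.07 under cold stress, BCAS2 had 0.58 as a whole number and 0.29 on its matched unigene, and neither was called.

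SYF2 had 76.1 CPM in the fasting, 123 CPM in the cold stress, 64.2 CPM in the thermal stress and 47.2 CPM in the control library, so control was its lowest library. It rose 2.60-fold under cold stress (1.38, 1.26 to 1.497), and its ratio after fasting was 0.69 (0.57 to 0.81). CDC5L, a Myb-like core protein of the complex, had 22.2 CPM in the fasting, 29.5 CPM in the cold stress, 16.7 CPM in the thermal stress and 13.6 CPM in the control library, and rose 2.17-fold under cold stress (1.12, 0.89 to 1.34). XAB2 rose 2.17-fold too, at 24.9 CPM in the cold stress and 11.5 CPM in the control library. RBM22, which contacts the catalytic RNA, rose 2.34-fold, at 42.5 CPM in the cold stress and 18.2 CPM in the control library. ISY1 had 0.973 CPM in the fasting, 8.58 CPM in the cold stress, 4.35 CPM in the thermal stress and 3.601 CPM in the control library. It rose 2.38-fold under cold stress (1.25, 0.82 to 1.70) and fell 3.702-fold after fasting (-1.89, -2.71 to -1.13), on 19 fragments against 63. PRPF19 itself was called in no library, with 5.43 CPM in the fasting, 6.70 CPM in the cold stress, 5.58 CPM in the thermal stress and 7.03 CPM in the control library.

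Among the helicases, DHX38, which drives the step between the 2 reactions, stood out under cold stress. It had 11.7 CPM in the fasting, 34.6 CPM in the cold stress, 11.4 CPM in the thermal stress and 10.1 CPM in the control library, and rose 3.44-fold under cold stress (1.78, 1.54 to 2.03). Its 2 larger unigenes gave 1.87 and 1.84. DHX15, which takes the spent complex apart, had a cold stress ratio of 0.65 and was not called, and its unigenes bore the name of DHX15 in one protein database only. DHX16, which acts before the first reaction, was called lower after fasting as a whole number (-1.21, -1.46 to -0.97). Its matched unigenes had 7.32 CPM in the fasting, 19.2 CPM in the cold stress, 8.82 CPM in the thermal stress and 11.3 CPM in the control library, gave -0.62 after fasting and lost the call. BCAS2 went the other way. Its number was dominated by DENN-domain genes and had -0.51 after fasting, while its single matched unigene had 5.79 CPM in the fasting and 13.9 CPM in the control library and was called lower (-1.27, -1.60 to -0.94). For PRPF18, likewise, the whole number had 0.14 after fasting. Its matched unigenes were called lower with a ratio just past the 2-fold limit (-1.002, -1.36 to -0.65). The second-step proteins SLU7 and CDC40, the exon junction partner CWC22 and the retention complex protein BUD13 passed the call in no library, with ratios after fasting from -0.94 for BUD13 to -0.42 for SLU7. The matched unigenes of CWC22 held 16.1% of its fragments over the 4 libraries and gave -0.14 (-0.59 to 0.30) after fasting.

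SR proteins and their relatives, 13 members, had medians of 0.26 under cold stress and -0.23 under thermal stress. Under cold stress 11 of 13 lay above control, and 7 of 13 with TMM or median-of-ratios scaling. After fasting 7 of 13 lay above control, and 9 and 10 with these scalings. Single members moved strongly. SRSF7 had 4.66 CPM in the fasting, 18.7 CPM in the cold stress, 1.67 CPM in the thermal stress and 5.54 CPM in the control library. It rose 3.38-fold under cold stress (1.76, 1.43 to 2.10) and fell 3.31-fold under thermal stress (-1.73, -2.37 to -1.12). SRSF3, a paralog with the same kind of RNA-binding domain, had 25.9 CPM in the fasting, 32.5 CPM in the cold stress, 6.64 CPM in the thermal stress and 17.7 CPM in the control library, and fell 2.67-fold under thermal stress (-1.42, -1.73 to -1.11). In the control library 92.3% of the reads placed on SRSF3 unigenes and 71.8% of those on the SRSF7 unigene fitted several places, so their assignment is uncertain.

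SRSF4, SRSF5 and SRSF6 share 1 orthology number, together with a unigene for cactin, a splicing cofactor. The number had 76.8 CPM in the fasting, 131 CPM in the cold stress, 50.2 CPM in the thermal stress and 59.1 CPM in the control library, and rose 2.22-fold under cold stress (1.15, 1.04 to 1.26). Its unigenes differed. The 8 unigenes that matched SRSF5 had 48.2 CPM in the fasting, 51.4 CPM in the cold stress, 6.86 CPM in the thermal stress and 22.1 CPM in the control library. Their ratios were 1.12 (0.95 to 1.30) after fasting, 1.21 (1.04 to 1.39) under cold stress and -1.69 (-1.99 to -1.39) under thermal stress, all beyond 2-fold. The SRSF4 unigenes had 6.66, 12.8 and 6.47 CPM in the fasting, cold stress and thermal stress libraries, against 8.17 CPM in control, and the SRSF6 unigenes had 4.15, 3.94 and 5.13 CPM, against 2.74 CPM in control. Cactin had 12.4 CPM in the fasting, 56.7 CPM in the cold stress, 24.9 CPM in the thermal stress and 20.0 CPM in the control library, with a log2 ratio interval of 1.32 to 1.68 under cold stress. The SRSF5 unigene with the most fragments, Unigene6594, had few multiply placed reads and 23.0 CPM in the fasting, 19.0 CPM in the cold stress, 2.73 CPM in the thermal stress and 7.20 CPM in the control library. This split by best match was made after the values were seen. In the control library 77.98% of the reads placed on all unigenes of the number fitted several places, so the split is also uncertain.

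SRSF1/9 and SRSF2, the founding SR proteins, varied little. SRSF2 had 18.2 CPM in the fasting, 19.2 CPM in the cold stress, 15.8 CPM in the thermal stress and 18.2 CPM in the control library. SRSF1/9 was one of the few members below control under cold stress, with 19.3 CPM there and 25.9 CPM in control (-0.42, -0.63 to -0.21). SRSF11, SCAF4 and SFPQ, a paraspeckle protein, were called in no library, and their largest ratio was 0.52 for SFPQ under cold stress. Of the reads placed on SRSF11 and SFPQ unigenes in the control library, 85.7% and 79.8% fitted several places. SREK1, SUGP2 and PNISR were not called either, with cold stress ratios of 0.30, 0.69 and 0.26, and under 50% of their fragments over the 4 libraries lay on matched unigenes. The matched unigenes of PNISR lay below control under cold stress (-0.40, -0.64 to -0.16), and that of SREK1 gave 0.15 (-0.13 to 0.44). In the control library 88.8% of the reads placed on SREK1 and 54.9% on PNISR unigenes fitted several places.

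CLASRP and AKAP17A also held mostly unigenes of other names, and their matched unigenes differed from the sums. CLASRP, an SR-like protein that binds CLK kinases, had 51.7 CPM in the fasting, 36.0 CPM in the cold stress, 47.2 CPM in the thermal stress and 42.2 CPM in the control library as a whole number. Its matched unigenes had 22.7 CPM in the fasting, 3.82 CPM in the cold stress, 16.2 CPM in the thermal stress and 16.9 CPM in the control library and were called lower under cold stress (-2.15). The larger CLASRP contigs had intervals of -2.64 to -1.40 and -2.93 to -1.77 under cold stress. In the control library 70.65% of the reads placed on all unigenes of the CLASRP number fitted several places, so the split between its unigenes is uncertain. AKAP17A, a splicing regulator that also anchors protein kinase A, was near control as a whole number under cold stress (0.05). Its matched unigenes had 1.59 CPM in the fasting, 10.5 CPM in the cold stress, 3.18 CPM in the thermal stress and 2.12 CPM in the control library and were called higher under cold stress (2.31).

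**Figure D5:**
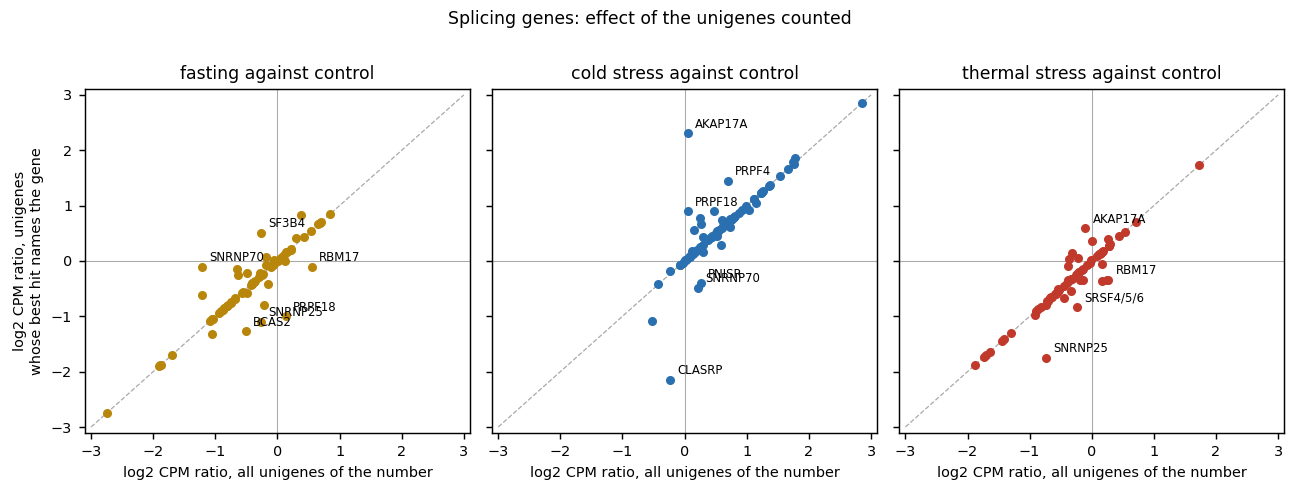
Log2 CPM ratio to control of each splicing gene from all unigenes of its orthology number (horizontal axes) and from matched unigenes only (vertical axes), in fasting, cold stress and thermal stress. Most points lie on the dashed line of equal values, and named points differ by more than 0.6, among them AKAP17A (0.05 and 2.31) and CLASRP (-0.23 and -2.15) under cold stress.

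The minor spliceosome members, 6 proteins of the U11/U12 particles, were the least abundant. Under cold stress 3 of 6 lay above control with a median of 0.03, and 2 of 6 with TMM or median-of-ratios scaling. Their summed level was 16.7 CPM in the fasting, 23.0 CPM in the cold stress, 13.3 CPM in the thermal stress and 22.8 CPM in the control library. ZCRB1 had 4.66 CPM in the fasting, 10.3 CPM in the cold stress, 2.62 CPM in the thermal stress and 9.66 CPM in the control library. It fell 2.07-fold after fasting (-1.05, -1.44 to -0.68) and 3.68-fold under thermal stress (-1.88, -2.38 to -1.41). RNPC3, which joins the U11 and U12 particles, had 61 fragments in the fasting, 51 in the cold stress, 18 in the thermal stress and 55 in the control library and fell 3.13-fold under thermal stress (-1.65, -2.50 to -0.86). ZMAT5 fell 2.13-fold after fasting on 22 against 42 fragments (-1.09, -1.91 to -0.31) and had 62 fragments under thermal stress. SNRNP25 was not called as a whole number. Its matched unigenes had 1.23, 1.23 and 0.781 CPM in the fasting, cold stress and thermal stress libraries, against 2.63 CPM in control, and were called lower in all 3. SNRNP48 was not called, with 3.43, 2.82 and 2.62 CPM in the fasting, cold stress and thermal stress libraries, against 2.17 CPM in control. SNRNP35 had 0, 14, 7 and 2 fragments in the fasting, cold stress, thermal stress and control libraries. A count of 0 allows up to 0.154 CPM in the fasting library, which is not below the control level of 0.114 CPM, and the cold stress call rests on 14 against 2 fragments (2.85, 0.72 to 6.03).

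Members with short unigenes had lower ratios after fasting than members with long ones. Among 72 members with at least 10 fragments in both libraries, the median log2 ratio after fasting was -0.72 for 20 members whose longest unigene was under 1000 bases, -0.37 for 23 members from 1000 to under 2000 bases, 0.02 for 16 members from 2000 to under 3000 bases and -0.06 for 13 longer members. Across these genes Spearman's rho between length and ratio was 0.39, and across 4950 orthology numbers it was -0.04, where the 4 medians ran from -0.30 to -0.13. Over the matched unigenes of 71 members rho was 0.47. Under cold stress rho over the members was 0.096, and the medians of the 4 classes were 0.52, 0.47, 0.56 and 0.65, from short to long. Under thermal stress rho was 0.17, and the shortest class was again the lowest, with medians of -0.55, -0.24, -0.22 and -0.33. Over all numbers the thermal stress medians ran from -0.16 to -0.08. In each comparison the members share 2 libraries and are not independent replicates, so the values are descriptions. All 7 Sm genes fall in the shortest class, and SF3B1, PRPF8 and SFPQ fall in the longest.

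Other splicing genes outside the wording of the rule were taken as lists by their annotated definitions. Their values are sums over whole orthology numbers, and matched unigenes were not set apart for them. LSM2 to LSM8 form the ring on U6 snRNA, and LSM1 takes the place of LSM8 in a cytoplasmic ring that acts in mRNA decay. Of these 8, 4 were called lower after fasting, beside 21.6% of all numbers, and 4 under thermal stress, beside 11%. Under cold stress 1 was called higher, beside 17.5%. LSM1, LSM2, LSM4 and LSM6 were called lower after fasting, and LSM1, LSM5, LSM6 and LSM8 under thermal stress. LSM1 had 83, 384 and 151 fragments in the fasting, cold stress and thermal stress libraries, against 295 in the control library, and a log2 ratio of -1.99 after fasting. All 8 lay below control after fasting, with a median of -0.98, and 7 of 8 did with TMM or median-of-ratios scaling, with 2 calls. Of all 5223 numbers, 834 and 793 were called lower with these scalings. Under thermal stress 7 of 8 lay below control under each scaling, with a median of -0.89 on library totals, and these scalings left 1 call. Among all 5204 numbers they left 459 and 453 lower calls. LSM3 was the gene called higher under cold stress (1.03), and with these scalings it was not called.

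Of 14 heterogeneous nuclear ribonucleoproteins, which coat new transcripts, 1 was called higher and 2 lower after fasting, beside 10.2% and 21.6% of all numbers. Under cold stress 1 was called higher and 1 lower, beside 17.5% and 9.22%, and under thermal stress 1 lower, beside 11%. The medians of the 14 were -0.21, 0.17 and -0.19 for fasting, cold stress and thermal stress against control, near those of all numbers. With TMM or median-of-ratios scaling, the 2 lower calls after fasting, the higher call under cold stress and the lower call under thermal stress were lost. The hnRNP R number was the one called higher after fasting, with 10874 fragments in the fasting and 4062 in the control library (1.26). Of 5 exon junction complex genes, RBM8A, the Y14 protein, was called lower after fasting (-1.67), beside 21.6% of all numbers. CASC3 was called higher under cold stress (1.04), beside 17.5%. All 5 lay below control after fasting, where 40.3% of all numbers lay above it. All 5 lay above control under cold stress, beside 60.9%. With median-of-ratios scaling 4 kept these sides in each library, with TMM scaling 5 and 4, and CASC3 was then not called. The SMN complex, which loads Sm rings onto snRNAs, was listed with 7 genes. After fasting GEMIN4 was called higher (1.07) and GEMIN6 lower (-1.31), beside 10.2% and 21.6% of all numbers. Under cold stress GEMIN2 (1.73) and GEMIN8 (1.12) were called higher, beside 17.5%, of which GEMIN2 was called with TMM scaling. Under thermal stress no gene of this complex was called.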

How the data were processed

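Liver mRNA was sequenced on an Illumina HiSeq 2000 as paired-end reads, 1 library per condition. The authors assembled the reads into unigenes without a genome (Trinity per the paper's methods, while its results mention SOAPdenovo). Aligner, counting program and use of strand are not given in the sources used here. The deposited counts are raw fragments per unigene. The deposited FPKM values are these counts per unigene length and library size, and values computed again differed by at most 5e-05. The authors' coverage tables give the count of reads placed at 1 or several places. The deposited tables of comparisons hold the authors' log2 ratios, p-values and false discovery rates and were not used. The tables held 0 further per-library columns.

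Fragments were summed by KEGG orthology number, and a number was tested with at least 10 fragments in either library. CPM used library totals. The 95% Clopper-Pearson intervals and the floor of 3 fragments for a count of 0 cover counting error only, since there is 1 library per group. Reads from PCR copies are not independent molecules, so the intervals can be too narrow even for counting error. The criteria of 2-fold and p under 0.05 follow the paper's methods. The procedure was run on simulated counts with known fold changes. The simulation held counting error only, without variation between fish or misplaced reads, so it cannot show how these affect the calls. Members and lists were chosen with earlier results of these data known. In each group, genes with at least 100 control fragments could be named, with the 8 largest rises and falls of each comparison among members with at least 10 fragments in both libraries. The other members are named to account for every one. Alternatives used edgeR's TMM, DESeq2's size factors, other totals, minima, folds, an adjusted p, an assumed biological variation, other sets of unigenes and another reference. Python 3.11.15 (numpy 2.4.6, pandas 2.3.3, scipy 1.17.1) and R 4.3.3 (edgeR 4.0.16, DESeq2 1.42.0) were used. The result of 1 gene of the further spliceosome list is not reported here.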

Additional observations from a re-analysis of the deposited data

How the results depend on the processing

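Calls depended on the scaling and on the unigenes counted. Percentages are the shares of all tested features called in the same direction under the same setting. With TMM scaling, fasting gave 1 member higher (13.8%) and 6 lower (16%), and the members' median log2 ratios were -0.074 for fasting, 0.35 for cold stress and -0.16 for thermal stress. With median-of-ratios factors from DESeq2, fasting gave 1 higher (14.5%) and 5 lower (15.2%), cold stress gave 10 higher (12.2%), and the medians were -0.043, 0.32 and -0.15. Totals without the 100 most abundant unigenes gave a cold stress median of 0.40. With single unigenes, fasting gave 31 higher (15.1%) and 43 lower (20.6%) of 280, cold stress 83 higher (24.6%) and 23 lower (13%) of 277, and thermal stress 21 higher (11%) and 35 lower (16.2%) of 268, with medians of -0.11 for fasting and -0.14 for thermal stress. With the longest unigene only, fasting gave 1 higher (12.6%), cold stress 3 lower (12%) and thermal stress 0 higher (8.79%), and the fasting ratio turned to 0.086 for SNRNP70, 0.031 for U2AF1 and 0.36 for SMNDC1, whose longest unigene did not match the gene. Without unigenes of mostly multiply placed reads, fasting gave 1 higher (10.7%), cold stress 1 lower (9.70%) and thermal stress 2 higher (7.22%). Matched unigenes, an alternative chosen after seeing the data, gave 2 lower under cold stress (9.26%), CLASRP and SNRNP25, and turned PRPF18 after fasting to -1.002. A fold of 1.5 gave 4 higher (17.7%) and 24 lower (33.9%) for fasting, 34 higher (30.7%) for cold stress, and 2 higher (13.5%) and 20 lower (22.7%) for thermal stress. An assumed biological coefficient of variation of 0.4 gave 3 lower (6.99%) for fasting, 3 higher (5.30%) for cold stress, and 1 higher (2.19%) and 1 lower (2.44%) for thermal stress. With control, cold stress and thermal stress summed as the reference, fasting gave 18 lower (25.7%) with a median of -0.40. Of the ratios of called members, including those called only with matched unigenes, 273 kept direction and side of the threshold when counted once per alternative, 62 lost the call, 8 gained it and 11 turned direction. Of these 11, 7 were called under neither setting: after fasting, BCAS2 turned to 0.23 with the longest unigene, and SNRNP25 to 0.26 with the longest unigene and 0.12 with the summed reference, and under cold stress AKAP17A turned to -0.15 with TMM scaling, -0.18 with median-of-ratios factors, -0.11 without the most abundant unigenes and -0.11 with the longest unigene. The causes of these changes were not tested. Depth limits SNRNP35, AAR2, RBM17, SNRNP48, ZMAT5 and SUGP2, which had under 50 control fragments. No paired analysis was possible because each group has 1 library.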

Other observations

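A further 10 spliceosome genes lay outside the wording used to choose the members, and this list was chosen after values were seen. The values of these genes too are sums over whole numbers, without a check by matched unigenes. Under cold stress 7 of the 10 lay above control and 3 below it, and 3 were called higher, beside 17.5% of all numbers. The branch site protein p14, which contacts the branch point adenosine inside SF3b, had 2956 fragments in the cold stress and 1113 in the control library (log2 CPM ratio 1.45). The helicase BRR2, which unwinds U4 from U6, had 888 fragments in the cold stress and 424 in the control library (1.11), and DDX23, which releases U1 from the 5′ splice site, had 924 fragments in the cold stress and 324 in the control library (1.55). With TMM or median-of-ratios scaling p14 and DDX23 were still called and BRR2 was not (0.91 and 0.87). After fasting 2 of the 10 were called lower, a share near the 21.6% of all numbers. The tri-snRNP-associated protein 3 had 66 fragments in the fasting and 182 in the control library (-1.62), and the U5 protein of the DIM1 family had 119 fragments in the fasting and 333 in the control library (-1.64), both also with either scaling. Their cold stress ratios were -0.29 and -0.08, with intervals that included 0. Under thermal stress the tri-snRNP-associated protein 2 was called lower, with 115 fragments in the thermal stress and 240 in the control library (-1.10), and not with TMM or median-of-ratios scaling (-0.97 and -0.96). No other gene of this list was called with library totals.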
